A study of Mus musculus with 3 samples.

Results

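The inflammasome genes of mouse tissue macrophages described here are the sensors Nlrp3, Nlrp1b, Nlrc4, Naip5 and Aim2, the adaptor Pycard, the caspases Casp1 and Casp4, and the pore-forming Gsdmd. They were chosen by symbol for their function, 9 of 24453 gene symbols in the table, each with its longest coding RefSeq transcript. Their RNA was measured by sequencing in 3 libraries, 1 each from cardiac macrophages, renal macrophages and the Kupffer cells of the liver, all from C57BL/6 mice aged 8 weeks in the steady state. In each tissue the sorted cells carried CD11b and F4/80 and lacked Ly6G and Ly6C, and no treatment is given for any of the animals. The labels do not give the number or sex of the animals, or whether animals were pooled.

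Inflammasomes are protein complexes that form in the cytosol when a sensor protein meets a microbial product or a sign of cell damage. The sensor recruits the adaptor ASC, encoded by Pycard, or binds caspase-1 directly through a CARD domain. Caspase-1 then cuts the precursors of interleukin-1β and interleukin-18 and cuts gasdermin D, whose released fragment forms pores in the plasma membrane and causes a lytic death called pyroptosis. In mice caspase-11, encoded by Casp4, binds bacterial lipopolysaccharide in the cytosol and cuts gasdermin D without a separate sensor, which is known as the noncanonical pathway. Transcription of some of these genes is a known control point in macrophages, since Nlrp3 and Casp4 are induced by Toll-like receptor and interferon signals.

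Levels are given in RPKM, the reads of a transcript divided by its exon length in kilobases and by a total in units of 1000000. That total is the library's reads summed over all transcripts in the table, and not all reads sequenced. This sum, recovered from the values, came to 14460630 reads for the heart, 15550833 for the kidney and 16743420 for the liver library. With 1 library per tissue there was no replicate spread and no test between tissues, and each interval below is an exact 95% Poisson or Clopper-Pearson interval that covers counting error only, with PCR copies not told apart from separate molecules. In bulk libraries fewer cells of a type and less RNA per cell cannot be told apart. The 7 macrophage markers checked, among them Adgre1 and Csf1r, were all at or above 1 RPKM in every library. The 4 Kupffer cell markers summed to 189 RPKM in the heart, 0 in the kidney and 1839 in the liver library. Timd4 at 148 RPKM and Vsig4 at 41.5 RPKM made up the heart sum. Clec4f and Cd5l had 0 reads in the heart library, against 572 and 472 RPKM in the liver library.

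All 9 genes reached 1 RPKM in some library and so could be compared. Casp4 and Nlrp3 were the members that stood far higher in the heart library than in the other tissues. Casp1, Naip5 and Aim2 were highest in the liver library, and Nlrp1b, Pycard and Gsdmd were highest in the kidney library. Nlrc4 was nearly level between heart and kidney and somewhat lower in liver. Differences between libraries were taken on the log2(RPKM + 1) scale. A difference of at least 2 log2 units, that is 4-fold in RPKM + 1, was counted. For low genes this asks for more than 4-fold in RPKM. All counts of genes higher, lower or differing below use this scale. By this count 2 of 9 members, Nlrp3 and Casp4, stood higher in heart than in kidney and 0 stood lower, where 7.50% of the 11482 genes compared differed in either direction. Set against the liver, Casp4 alone passed the threshold, higher in the heart, and 0 of the other 8 did, against 12.5% of all genes. Nlrp1b alone passed it between kidney and liver, higher in the kidney, against 12.7% of all genes. In RPKM, Nlrp1b in the heart was 80.6 times its liver level, and Naip5 in the liver was 5.39 times its kidney level. Both fell short of the threshold. With 9 members a count of 1 or 2 describes these genes and says nothing of the set.

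**Figure D1:**
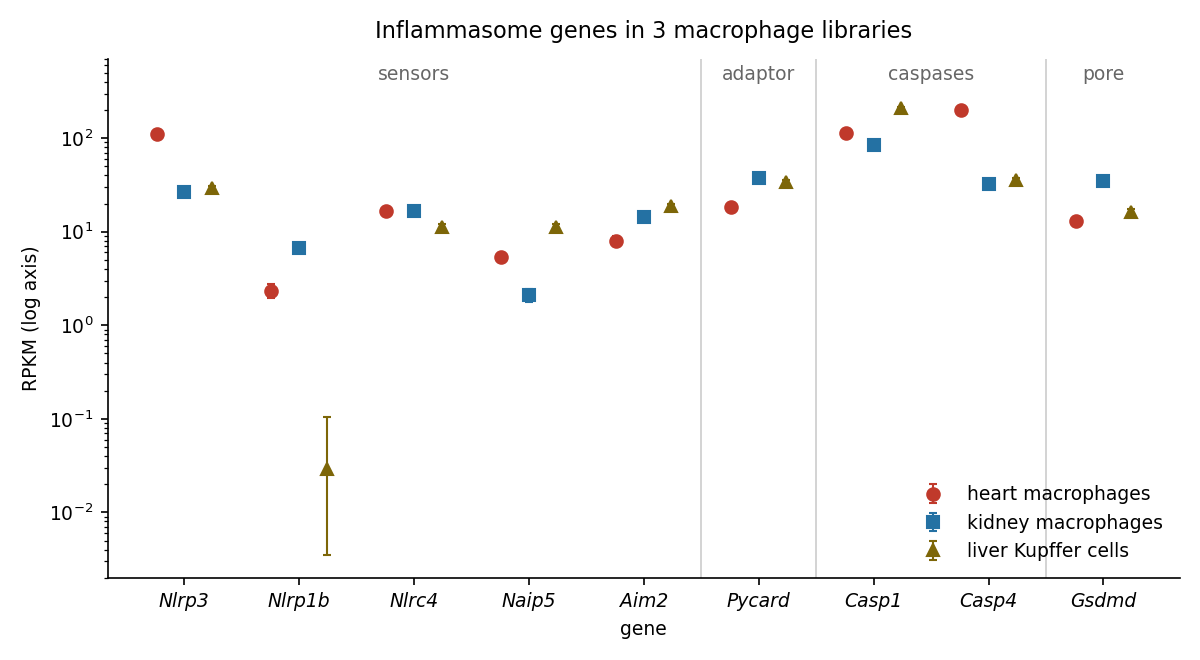
RPKM (log axis) of the 9 inflammasome genes in the heart, kidney and liver libraries, grouped by role; bars are exact 95% Poisson intervals of the reads, mostly smaller than the points. Nlrp3 and Casp4 stand highest in the heart library at 112 and 199.6 RPKM, Casp1 highest in the liver library at 211 RPKM, and Nlrp1b has 2 reads in the liver library.

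The sensor Nlrp3, which responds to potassium loss and membrane damage, had 112 RPKM in the heart library (95% interval 109 to 114, 6476 reads). It had 26.3 RPKM in the kidney library (25.0 to 27.6, 1638 reads) and 29.3 RPKM in the liver library (28.0 to 30.6, 1966 reads). The heart library alone stood high, and kidney and liver were close to each other. The ratio of RPKM was 4.25 for heart over kidney (4.03 to 4.49) and 3.81 for heart over liver (3.63 to 4.01). For kidney over liver it was 0.897 (0.840 to 0.958). On the log2 scale with the pseudocount the heart was 2.05 above the kidney, just past the threshold of 2, and 1.90 above the liver, just short of it. With the libraries scaled by their median ratio the second difference was 2.15, past the threshold, and with a pseudocount of 5 the first was 1.90, short of it. In the heart library Nlrp3 lay above 94.2% of the genes compared, against 79.6% in the kidney and 80.6% in the liver library. It spans chromosome 11 from 59542686 to 59566956 on the plus strand of mm10, with 10 exons in the matching GENCODE transcript.

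Caspase-11, encoded by Casp4, showed the same order of tissues with a wider gap. Casp4 had 199.6 RPKM in the heart library (95% interval 194 to 206, 4133 reads), the highest level of any member there. It had 32.1 RPKM in the kidney library (29.8 to 34.6, 715 reads) and 35.5 RPKM in the liver library (33.1 to 37.9, 850 reads). The heart exceeded the kidney 6.22-fold (5.74 to 6.74) and the liver 5.63-fold (5.23 to 6.07), and kidney and liver differed by less than counting error, with a ratio of 0.906 (0.819 to 1.002). The log2 differences were 2.60 for heart minus kidney and 2.46 for heart minus liver, and both stayed past the threshold under each pseudocount, scaling and transcript choice tried. Casp4 was densely read in the heart library, at 2.89 reads per base of exon. The authors counted at most 3 tags at a position, which can hold such a value down by an amount that is not known.

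Casp4 lies directly after Casp1 on the plus strand of chromosome 9, with 1567 bases between the Casp1 transcript (5298517 to 5307281) and the Casp4 transcript (5308849 to 5336791). The RNA of these neighbours was ordered differently. Casp1, which encodes the protease that matures interleukin-1β and interleukin-18, had 114 RPKM in the heart library (95% interval 110.0 to 119, 2484 reads), 84.1 RPKM in the kidney library (80.4 to 87.9, 1962 reads) and 211 RPKM in the liver library (205 to 217, 5298 reads). It was thus highest in the liver, where Casp4 was low. The ratio of Casp1 RPKM was 0.543 for heart over liver (0.517 to 0.569), 0.399 for kidney over liver (0.378 to 0.420) and 1.36 for heart over kidney (1.28 to 1.45). None of these 3 differences reached 4-fold. In the liver library Casp1 had 3.53 reads per base, so the limit on tags touches that value too. No 50-base word of the Casp1 or Casp4 transcript occurred in a transcript of another gene, so their reads could not come from each other through identical sequence of that length.

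The sequence before the start of each gene is shown for the 3 members that passed the 4-fold threshold between libraries. Casp1 is added as the neighbour of Casp4 with another order of tissues. Each line gives the 250 bases before the RefSeq start that the table uses, 5′ to 3′ on the gene's strand, from RefSeq on GRCm38.p6. The windows are chr9:5308599-5308848 (plus strand) for Casp4, chr9:5298267-5298516 (plus) for Casp1, chr11:59542436-59542685 (plus) for Nlrp3 and chr11:71230734-71230983 (minus) for Nlrp1b. Capitals mark matches to the motifs named after them.
Casp4: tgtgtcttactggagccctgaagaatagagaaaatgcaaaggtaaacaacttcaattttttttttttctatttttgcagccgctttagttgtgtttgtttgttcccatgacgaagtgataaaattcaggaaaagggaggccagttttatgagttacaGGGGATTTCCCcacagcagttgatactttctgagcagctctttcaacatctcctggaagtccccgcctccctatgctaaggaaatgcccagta
Casp1: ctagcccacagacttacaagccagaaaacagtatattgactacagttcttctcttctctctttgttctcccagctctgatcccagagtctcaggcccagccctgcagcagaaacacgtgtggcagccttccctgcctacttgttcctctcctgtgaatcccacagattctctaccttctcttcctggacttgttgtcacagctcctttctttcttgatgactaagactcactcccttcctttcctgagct
Nlrp3: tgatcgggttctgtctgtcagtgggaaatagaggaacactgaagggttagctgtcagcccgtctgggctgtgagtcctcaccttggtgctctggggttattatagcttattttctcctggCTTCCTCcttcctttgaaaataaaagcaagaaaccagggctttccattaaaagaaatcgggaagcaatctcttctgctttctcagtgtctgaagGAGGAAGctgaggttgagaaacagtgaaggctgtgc
Nlrp1b: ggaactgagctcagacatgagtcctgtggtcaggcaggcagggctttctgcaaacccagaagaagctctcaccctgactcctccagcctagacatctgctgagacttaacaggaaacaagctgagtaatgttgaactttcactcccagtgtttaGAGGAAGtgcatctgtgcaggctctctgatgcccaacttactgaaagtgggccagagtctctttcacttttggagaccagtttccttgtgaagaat
Both strands were searched for the 10-letter NF-κB consensus, the interferon element GAAANNGAA, the GAS element TTCNNNGAA, the AP-1 word TGANTCA, the PU.1 core GAGGAAG and the TATA word TATAAA. The Casp4 window held 2 overlapping NF-κB matches on the plus strand, 93 to 84 and 92 to 83 bases before the start, and 3.90% of 32851 promoter windows of the same length held at least 1. The Nlrp3 window held the PU.1 core at 130 to 124 bases on the reverse strand and at 36 to 30 bases before the start, and the Nlrp1b window held it at 96 to 90 bases, against 10.6% of all windows. The Casp1 window held none of the 6 motifs. Among members whose windows are not printed, Naip5, which was highest in the liver, also held an NF-κB match, and Aim2 and Pycard, both lowest in the heart, held the PU.1 core. The interferon, GAS, AP-1 and TATA words, absent from these 4 windows, occurred in 7.13%, 7.02%, 6.75% and 12.4% of all windows. A match is a run of letters and not a measured binding site.

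Nlrp1b, a sensor known in mice for responses to anthrax lethal factor that depend on the allele a strain carries, and held in check by the proteases DPP8 and DPP9, was the rarest member in the heart and liver libraries. It had 2.34 RPKM in the heart library (95% interval 1.97 to 2.76, 140 reads), 6.69 RPKM in the kidney library (6.07 to 7.35, 431 reads) and 0.029 RPKM in the liver library (0.00351 to 0.105, 2 reads). The liver library thus held almost no Nlrp1b reads. The kidney level was 231 times the liver level with a wide counting interval of 63.8 to 1922, since it rests on 2 reads in the liver. The heart level was 80.6 times the liver level (22.0 to 676) and 0.349 times the kidney level (0.287 to 0.424). On the log2 scale with the pseudocount these came to 2.90 for kidney minus liver, 1.70 for heart minus liver and -1.20 for heart minus kidney. For such a low gene the value hung on the pseudocount, and kidney minus liver was 5.72 with a pseudocount of 0.1 and 1.22 with a pseudocount of 5. The shorter of the 2 Nlrp1b transcripts in the table had 0.689, 1.63 and 0.015 RPKM in the heart, kidney and liver libraries, the same order. Nlrp1b spans chromosome 11 from 71153102 to 71230733 on the minus strand.

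Its neighbours on the same strand, the paralog Nlrp1a and the pseudogene Nlrp1c-ps, were also highest in the kidney library. Nlrp1a had 3.03 RPKM in the heart, 12.2 in the kidney and 2.68 in the liver library. Nlrp1c-ps had 8.17 RPKM in the heart, 19.5 in the kidney and 5.65 in the liver library. Unlike Nlrp1b, both were well covered by reads in the liver. Only 2.18% of the 50-base words of the Nlrp1b transcript also occurred in another gene's transcripts, chiefly those of Nlrp1a and Nlrp1c-ps.

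Naip5 binds bacterial flagellin in the cytosol and then engages Nlrc4. It had 5.40 RPKM in the heart library (95% interval 4.89 to 5.95, 412 reads), 2.09 RPKM in the kidney library (1.78 to 2.42, 171 reads) and 11.2 RPKM in the liver library (10.5 to 11.95, 992 reads). The liver library was highest and the kidney library lowest, and kidney over liver was 0.186 (0.157 to 0.219). Its log2 difference of -1.99 for kidney minus liver fell just inside the threshold, while scaling to TPM gave -2.16 and a pseudocount of 0.1 gave -2.37. The heart was 2.59 times the kidney (2.16 to 3.12) and 0.481 times the liver (0.428 to 0.540). Naip5 shared 36.9% of its 50-base words with other transcripts, chiefly Naip6, so its level is uncertain where the counting could not tell these genes apart.

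The other Naip genes were measured in the same libraries. Naip1, a receptor for the needle protein of type III secretion systems, had 1.17 RPKM in the heart, 0.65 in the kidney and 5.67 in the liver library. Its kidney minus liver difference was -2.01 and passed the threshold. Naip2, the receptor for the inner rod protein of these systems, had 10.8 RPKM in the heart, 7.24 in the kidney and 8.36 in the liver library, and so was highest in the heart. Naip6, a second flagellin receptor, had 2.95, 2.14 and 4.43 RPKM in the heart, kidney and liver libraries. Naip7 had 3.67, 2.35 and 4.77 RPKM in the same order. The kidney library was the lowest for all 5 Naip genes, and the liver library was the highest for 4 of the 5. Shared sequence, given above for Naip5, was not measured for the other Naip genes, so these orders may not be independent.

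**Figure D2:**
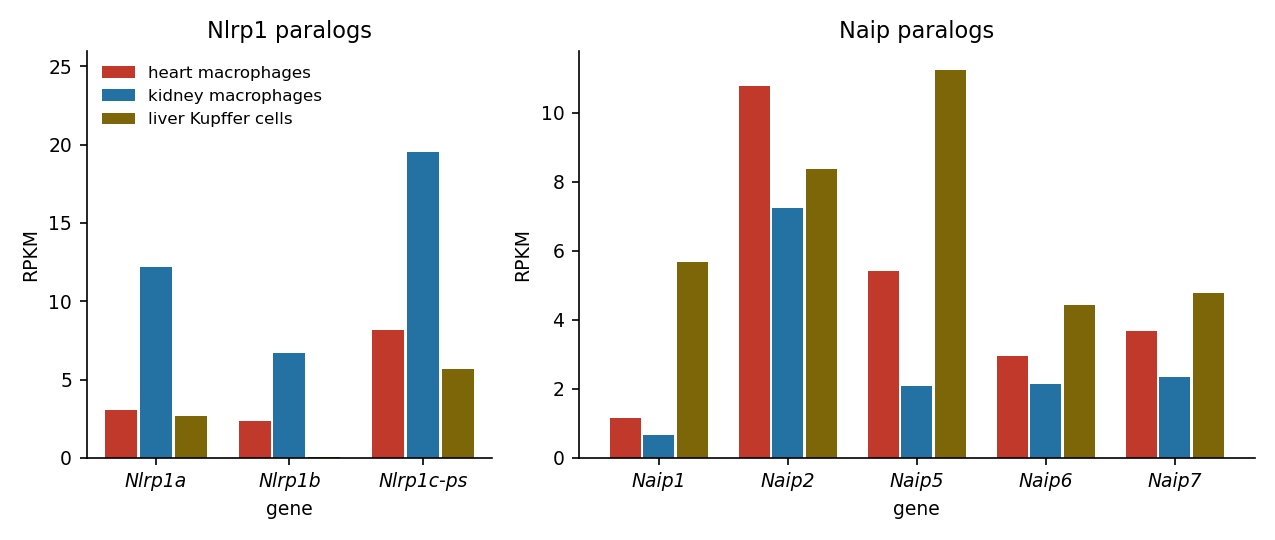
RPKM of the Nlrp1 paralogs (left) and of the Naip paralogs (right) in the heart, kidney and liver libraries, 1 bar per library. The 3 Nlrp1 genes are highest in the kidney library, while Naip1, Naip5, Naip6 and Naip7 are highest in the liver and Naip2, at 10.8 RPKM, in the heart library.

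Nlrc4, the common partner of the Naip proteins, had 16.5 RPKM in the heart library (95% interval 15.5 to 17.6, 915 reads), 16.8 RPKM in the kidney library (15.7 to 17.8, 998 reads) and 11.3 RPKM in the liver library (10.4 to 12.1, 721 reads). Heart and kidney had overlapping intervals, with a ratio of 0.986 (0.900 to 1.08). The liver was lowest, and heart over liver was 1.47 (1.33 to 1.62) and kidney over liver 1.49 (1.35 to 1.64). Nlrc4 was thus lowest in the library where its partner Naip5 was highest. The sign of the small heart minus kidney difference of Nlrc4 depended on the scaling: it was -0.02 as deposited, 0.04 as TPM and 0.25 with median ratio scaling. Nlrc4 lies on chromosome 17 from 74426295 to 74459108 on the minus strand.

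Aim2, which binds double-stranded DNA in the cytosol, had 7.99 RPKM in the heart library (95% interval 7.10 to 8.97, 292 reads), 14.2 RPKM in the kidney library (13.1 to 15.5, 559 reads) and 18.6 RPKM in the liver library (17.4 to 20.0, 788 reads). The heart library was the lowest, and the intervals of the 3 libraries did not overlap. The heart level was 0.429 times the liver level (0.374 to 0.491) and 0.562 times the kidney level (0.486 to 0.648), and the kidney level was 0.764 times the liver level (0.684 to 0.852). Aim2 lies on chromosome 1 from 173420604 to 173466036 on the plus strand. It was thus lowest in the library where Nlrp3 was highest, and Nlrp3 over Aim2 was 14.0 in the heart, 1.85 in the kidney and 1.57 in the liver library.

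Pycard, the adaptor that links pyrin-domain sensors to caspase-1, had 18.3 RPKM in the heart library (95% interval 16.9 to 19.9, 565 reads), 37.8 RPKM in the kidney library (35.7 to 39.9, 1251 reads) and 34.0 RPKM in the liver library (32.1 to 36.0, 1212 reads). The heart library was the lowest, at 0.486 times the kidney level (0.439 to 0.537) and 0.540 times the liver level (0.488 to 0.597). Kidney and liver were close, with a ratio of 1.11 (1.03 to 1.20). Pycard lies on chromosome 7 from 127991373 to 127993867 on the minus strand, and 22.7% of its annotated exon bases in that interval overlap the gene Gm45205 on the opposite strand. Reads were counted on both strands, so reads of the overlap could not be assigned to either gene.

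Gsdmd, the substrate of both caspases that forms the membrane pore, had 12.9 RPKM in the heart library (95% interval 11.5 to 14.3, 328 reads), 35.3 RPKM in the kidney library (33.1 to 37.6, 967 reads) and 16.1 RPKM in the liver library (14.7 to 17.6, 476 reads). The kidney library stood high, and the 3 intervals did not overlap. The heart level was 0.365 times the kidney level (0.321 to 0.414) and 0.798 times the liver level (0.691 to 0.920), and the kidney level was 2.19 times the liver level (1.96 to 2.45). Gsdmd lies on chromosome 15 from 75862339 to 75867404 on the plus strand. The heart library, which had the most Casp4 RNA, thus had the least Gsdmd RNA, but its gap to the liver was small and depended on the scaling. On the log2 scale heart minus liver was -0.30 as deposited, -0.14 as TPM and -0.07 with median ratio scaling.

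**Figure D3:**
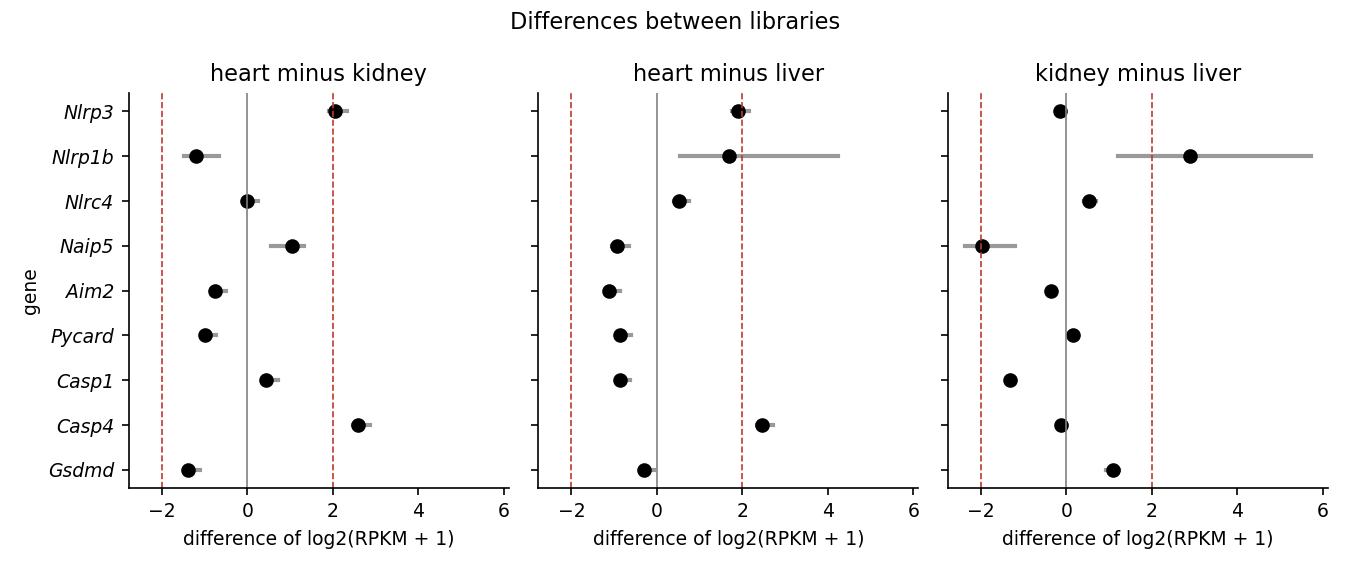
Differences of log2(RPKM + 1) for the 9 genes, heart minus kidney, heart minus liver and kidney minus liver; black points are the values from RPKM with a pseudocount of 1, grey lines span these and the values under 6 alternatives (pseudocounts of 0.1 and 5, the scalings and the transcript choices), and dashed red lines mark the 4-fold threshold of 2. Casp4 lies past 2 in both heart comparisons over its whole span, and Nlrp1b has the widest spans.

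Below the 4-fold threshold the members still spread. At 2-fold on the same scale, 6 of 9 members differed between heart and kidney, against 33.5% of all genes. Nlrp3, Casp4 and Naip5 were higher in the heart, and Nlrp1b, Pycard and Gsdmd were lower. Pycard at -1.003 and Naip5 at 1.05 lay close to the 2-fold line. Pycard fell short of it as TPM (-0.97) and with median ratio scaling (-0.73), and Naip5 and Nlrp1b did so with a pseudocount of 5 (0.55 and -0.67). Between heart and liver 4 of 9 differed, against 42.9% of all genes, with Nlrp3, Nlrp1b and Casp4 higher and Aim2 lower in the heart. Between kidney and liver 4 of 9 differed, against 41.9% of all genes, with Nlrp1b and Gsdmd higher and Naip5 and Casp1 lower in the kidney. The median difference of the 9 members was -0.02 for heart minus kidney, -0.30 for heart minus liver and -0.14 between kidney and liver (kidney minus liver), where the medians of all genes were -0.23, -0.16 and 0.04. Scaling by the median ratio moved the medians of all genes to -0.01, 0.00 and 0.01, and under it the medians of the members were 0.25, -0.07 and -0.17.

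Ratios between members within a library do not depend on how libraries are scaled to each other. Casp4 over Casp1 was 1.74 in the heart library (95% interval 1.66 to 1.83), 0.382 in the kidney library (0.350 to 0.416) and 0.168 in the liver library (0.156 to 0.181). The heart library was thus the only one of the 3 with more Casp4 than Casp1 per kilobase of exon. Nlrp3 over Pycard was 6.09 in the heart library (5.59 to 6.65), 0.696 in the kidney library (0.646 to 0.749) and 0.862 in the liver library (0.802 to 0.927), so the sensor exceeded its adaptor in the heart and stayed below it in the other libraries. Casp1 over Pycard was 6.24 in the heart (5.69 to 6.85), 2.23 in the kidney (2.07 to 2.39) and 6.20 in the liver library (5.83 to 6.61). Here heart and liver had overlapping intervals and the kidney stood low. Gsdmd over Casp1 was 0.112 in the heart (0.0999 to 0.126), 0.420 in the kidney (0.388 to 0.453) and 0.0765 in the liver library (0.0695 to 0.0840).

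**Figure D4:**
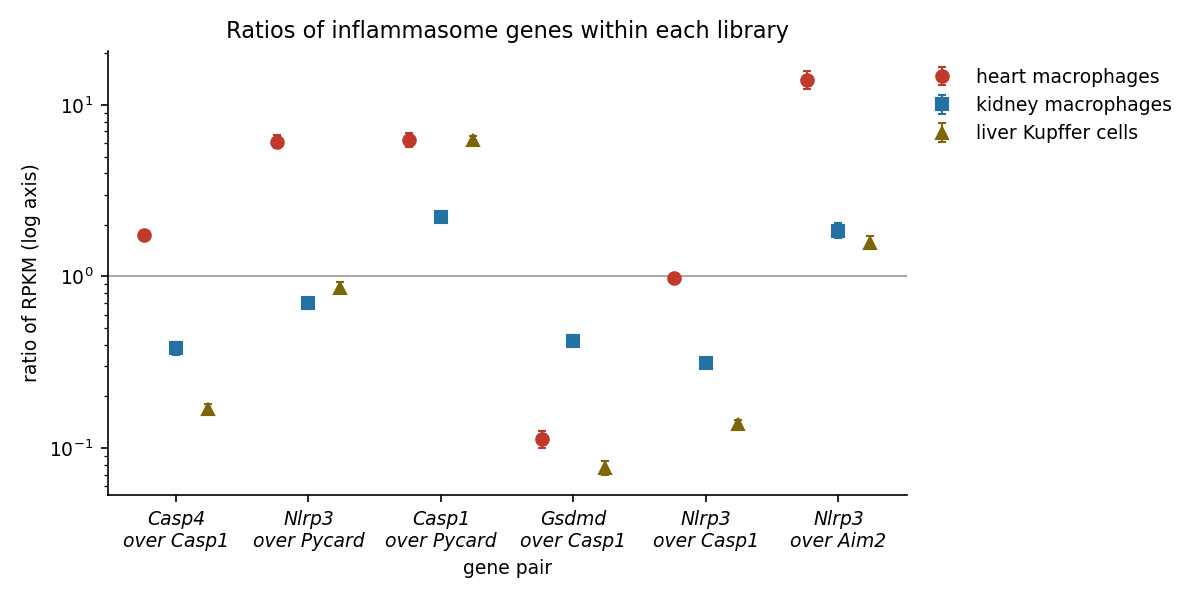
Ratios of RPKM between pairs of inflammasome genes within the heart, kidney and liver libraries (log axis), with 95% Clopper-Pearson intervals; the grey line marks equal RPKM. Casp4 exceeds Casp1, and Nlrp3 exceeds Pycard, in the heart library only, and Gsdmd over Casp1 is highest in the kidney library at 0.420.

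The order of the members differed between the libraries. In the heart library it ran Casp4, Casp1, Nlrp3, Pycard, Nlrc4, Gsdmd, Aim2, Naip5 and Nlrp1b from high to low. The intervals overlapped between Casp1 and Nlrp3 and between Pycard and Nlrc4. In the kidney library it ran Casp1, Pycard, Gsdmd, Casp4, Nlrp3, Nlrc4, Aim2, Nlrp1b and Naip5, with overlapping intervals between Pycard and Gsdmd and between Gsdmd and Casp4. In the liver library it ran Casp1, Casp4, Pycard, Nlrp3, Aim2, Gsdmd, Nlrc4, Naip5 and Nlrp1b. There the intervals overlapped between Casp4 and Pycard, between Aim2 and Gsdmd and between Nlrc4 and Naip5. The 5 sensors summed to 144 RPKM in the heart, 66.1 in the kidney and 70.4 in the liver library, and the 2 caspases to 314, 116 and 246 RPKM in the same order.

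Interleukin-1β was abundant at the RNA level in all 3 libraries, with Il1b at 498 RPKM in the heart, 394 in the kidney and 379.8 in the liver library. Il18, which encodes the other cytokine matured by caspase-1, had 94.7 RPKM in the heart, 55.2 in the kidney and 204 in the liver library, the same order as Casp1. Il1b was densely read, at 7.21, 6.12 and 6.36 reads per base of exon in the heart, kidney and liver libraries, and so was Il18 in the liver at 3.42. The limit of 3 tags at a position can hold such values down, so the close values of Il1b do not show equal expression. Il18bp, a secreted decoy of interleukin-18, had 5.91 RPKM in the heart, 17.5 in the kidney and 399 in the liver library. Il1rn, the receptor antagonist of interleukin-1, had 271 RPKM in the heart, 6.37 in the kidney and 69.96 in the liver library. Il1r2, a decoy receptor, had 162 RPKM in the heart and 89.2 in the kidney library and 0 reads in the liver library, so that against a floor of 3 reads the heart was at least 1208-fold and the kidney at least 664-fold above it. Il1a had 413 RPKM in the heart, 38.5 in the kidney and 356 in the liver library, with 5.97 reads per base in both heart and liver. Il18bp in the liver (6.67 reads per base) and Il1rn (3.92) and Il1r2 (2.35) in the heart were dense too. Of the 10 genes listed here as cytokine output, 9 could be compared. In heart minus kidney 2 were higher and 0 lower, where 2.40% of all genes were higher and 5.10% lower. In heart minus liver 1 was higher and 1 lower, with 5.33% and 7.13% of all genes. In kidney minus liver 2 were higher and 3 lower, with 7.57% and 5.10% of all genes. The median differences of the 9 genes were 0.77, 0.31 and -0.24 in that order, beside -0.23, -0.16 and 0.04 for all genes. Of the Il1a exon bases 11.2% overlap a gene on the opposite strand.

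**Figure D5:**
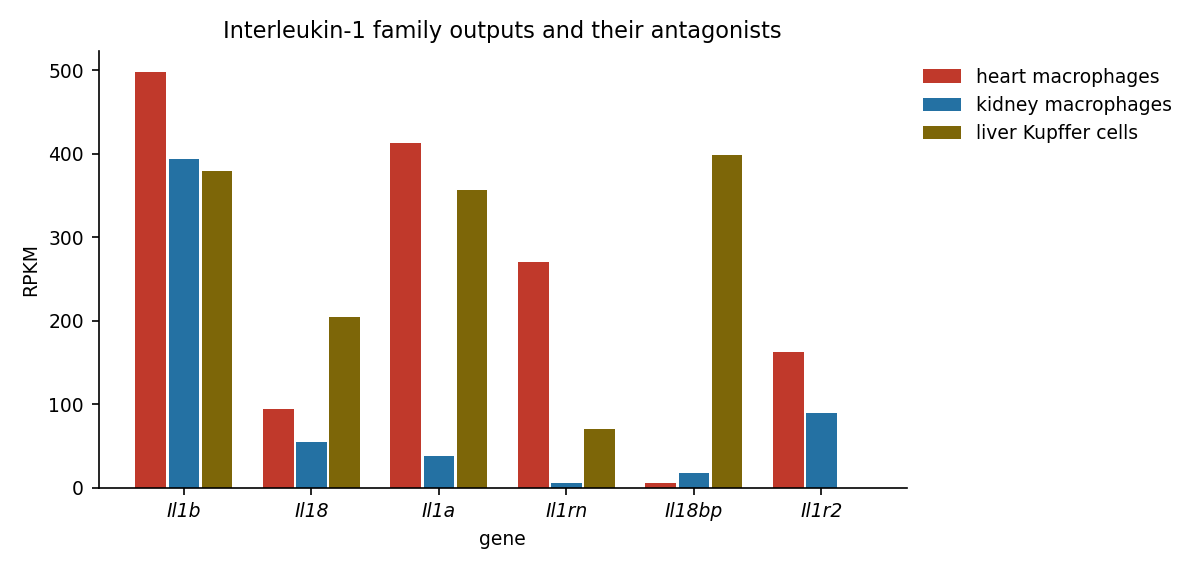
RPKM of cytokines matured or released with inflammasome activity (Il1b, Il18, Il1a) and of their antagonists and decoys (Il1rn, Il18bp, Il1r2) in the heart, kidney and liver libraries, 1 bar per library. Il1b has 498, 394 and 379.8 RPKM at over 6 reads per base, where the limit on tags can hold all 3 bars down; Il18bp reaches 399 RPKM in the liver library and Il1r2 has 0 reads there.

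Among 16 genes of cell death and membrane repair, 14 could be compared. Between heart and kidney 0 of 14 passed the threshold on log2(RPKM + 1) in either direction, where 7.50% of all genes did. In RPKM alone Mlkl was 4.14-fold higher in the kidney than in the heart (3.16 to 5.48). In heart minus liver 1 was higher and 2 were lower, with 5.33% and 7.13% of all genes, and in kidney minus liver 1 was higher and 2 were lower, with 7.57% and 5.10% of all genes. Gasdermin E, a relative of gasdermin D listed under its older symbol Dfna5, had 5.25 RPKM in the heart and 12.8 in the kidney library, with 0 reads in the liver library. Against a floor of 3 reads in the liver, it was at least 62.1-fold above the liver in the heart and 151-fold in the kidney. The necroptosis genes Ripk3 and Mlkl, a kinase and the pore-forming protein it activates, ran the other way. Ripk3 had 12.5 RPKM in the heart, 35.6 in the kidney and 77.5 in the liver library. Mlkl had 2.30 RPKM in the heart, 9.50 in the kidney and 59.6 in the liver library, so both were lowest in the heart and highest in the liver. The median differences of the 14 genes were 0.30, -0.20 and -0.55 for the 3 comparisons, and those of all genes -0.23, -0.16 and 0.04.

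Of 20 regulators of inflammasome assembly, 18 could be compared. In heart minus kidney 1 was higher and 1 lower, and in heart minus liver 0 of 18 passed the threshold. In kidney minus liver 0 were higher and 1 was lower. The shares of all genes called were 7.50%, 12.5% and 12.7%. Gbp5, a guanylate-binding protein known to promote Nlrp3 and Aim2 responses, had 17.2 RPKM in the heart, 1.09 in the kidney and 10.9 in the liver library. Gm12250, annotated in the table as Irgb10, a GTPase that acts on bacterial membranes, had 7.31 RPKM in the heart, 37.6 in the kidney and 31.9 in the liver library. P2rx7, the ATP-gated channel whose opening triggers Nlrp3, had 20.7 RPKM in the heart, 35.0 in the kidney and 8.80 in the liver library. It was thus not highest in the heart, where Nlrp3 was. Pydc3 had 7.04 RPKM in the heart, 17.3 in the kidney and 29.3 in the liver library. In RPKM the liver exceeded the heart 4.36-fold for Gm12250 and 4.17-fold for Pydc3, short of the threshold on log2(RPKM + 1). Card6 had 0.81, 4.82 and 1.33 RPKM in the same order. The median differences of the 18 genes were -0.57, -0.41 and -0.43 for the 3 comparisons in the order above, where all genes had -0.23, -0.16 and 0.04.

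Of 20 further sensors and relatives of the members, 17 could be compared. In heart minus kidney 0 were higher and 1 lower, and in heart minus liver 0 of 17 passed the threshold. In kidney minus liver 1 was higher and 1 lower. The shares of all genes called in these comparisons were 7.50%, 12.5% and 12.7%. Nlrx1, a mitochondrial NOD-like protein, had 0.113 RPKM in the heart, 3.82 in the kidney and 0.016 in the liver library. Nod2, a sensor of bacterial muramyl dipeptide, had 2.15 RPKM in the heart, 3.002 in the kidney and 0.026 in the liver library, low in the liver like Nlrp1b. Its heart level was 82.6 times the liver level (22.5 to 690, on 2 liver reads), short of the threshold with the pseudocount. Naip1, 4.86 times higher in the liver than in the heart, also fell short. Mefv, which encodes pyrin, had 4.42 RPKM in the heart, 1.23 in the kidney and 6.46 in the liver library. The median differences of the 17 genes were 0.33, -0.30 and -0.41 for the 3 comparisons, beside all-gene medians of -0.23, -0.16 and 0.04. Of the Nlrx1 exon bases 12.6% overlap a gene on the opposite strand.

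The genes of priming, that is of Toll-like receptor, NF-κB and interferon signals, were all compared, 21 of 21. In heart minus kidney 0 were higher and 1 lower, in heart minus liver 1 was higher and 1 lower, and in kidney minus liver 2 were higher and 1 lower. Over all genes the shares higher and lower were 2.40% and 5.10%, 5.33% and 7.13%, and 7.57% and 5.10%. Myd88, the adaptor of most Toll-like receptors, had 39.1 RPKM in the heart, 31.8 in the kidney and 7.08 in the liver library. Irf1, a transcription factor induced by interferon, had 65.9 RPKM in the heart, 209 in the kidney and 23.2 in the liver library. Irf7, a transcription factor of the type I interferon response, had 2.62 RPKM in the heart, 37.9 in the kidney and 159 in the liver library. Stat2, which encodes a factor that carries interferon signals, had 4.70 RPKM in the heart, 17.0 in the kidney and 10.6 in the liver library. Of the NF-κB genes in the list, Tnfaip3 had 123, 40.9 and 46.6 RPKM in the heart, kidney and liver libraries. Nfkb1 had 31.2, 14.4 and 14.4 RPKM in the same order, and the densely read Nfkbia 213, 176 and 135. These 3 were highest in the heart, while Rela, at 14.3, 28.9 and 22.2 RPKM, was lowest there. The median differences of the 21 genes were -0.87, -0.04 and 0.37 for the 3 comparisons, against -0.23, -0.16 and 0.04 for all genes. Of the Myd88 exon bases 9.09% overlap a gene on the opposite strand. Irf1 in the kidney library (3.25 reads per base) and Irf7 in the liver library (2.67) were densely read, so the limit on tags touches those values too.

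Markers of other cells also differed between the libraries, and sums are given in the order heart, kidney and liver. The dendritic cell list of 8 genes summed to 298 RPKM in the heart, 30.6 in the kidney and 13.9 in the liver library, with Cd209a at 270.1, 10.9 and 0 RPKM making up most of the heart sum and Flt3 at 1, 0 and 0 reads. Of the same list Clec9a and Xcr1 were highest in the kidney, with Clec9a at 0.126, 7.24 and 1.29 RPKM and Xcr1 at 1.07, 3.11 and 1.62 RPKM. The fibroblast list of 6 genes summed to 151, 0.775 and 8.46 RPKM in the same order, with Dcn at 125 RPKM in the heart. The sums of these lists were highest where Nlrp3 and Casp4 were highest, and their part in those values was not tested. The tubule list of 7 genes summed to 0.063, 287 and 0 RPKM, highest in the kidney library as were Nlrp1b, Pycard and Gsdmd. The liver library, highest for Casp1, Naip5 and Aim2, had the highest sums for monocytes (334, 268 and 766 RPKM over 8 genes), B cells (35.9, 168 and 304 RPKM over 6 genes), T and NK cells (4.35, 1.55 and 101 RPKM over 9 genes), endothelium (4.70, 8.72 and 141 RPKM over 6 genes) and hepatocytes (389, 384 and 627 RPKM over 7 genes). The hepatocyte sums hold Trf at 388, 382 and 384 RPKM, while Alb had 0, 0.22 and 64.3 RPKM and Serpina1e 0, 0 and 103 RPKM. The monocyte sum of the liver was carried by Plac8 at 129, 5.69 and 337 RPKM and Treml4 at 68.8, 29.7 and 360.4 RPKM, whereas Ccr2 had 117, 227 and 54.2 RPKM and was lowest in the liver. The part of these cells in the member levels was not tested. The neutrophil list of 10 genes summed to 20.1, 17.96 and 36.4 RPKM, and Csf3r made up most of each sum at 11.8, 17.8 and 31.6 RPKM. Of the same list Ly6g had 2, 2 and 1 reads, and S100a8 had 23, 0 and 0 reads. The cardiomyocyte list of 6 genes summed to 12.3, 4.43 and 0.041 RPKM. Among these markers the limit on tags touches Trf, at 5.61, 5.94 and 6.43 reads per base, so its close values do not show equal expression. It also touches Cd209a in the heart (3.91) and Plac8 (5.65) and Treml4 (6.03) in the liver.

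Genes with the most similar profile were found for the 3 members that passed the 4-fold threshold. The measure was the Euclidean distance of log2(RPKM + 1) over the 3 libraries among 10718 other coding genes. For Casp4 they were Eif1a (distance 0.57), Pde4b (0.58) and S100a10 (0.76). For Nlrp3 they were Ifit1 (0.39), Rin2 (0.46) and Cfhr2 (0.54). For Nlrp1b they were Lin9, BC029214 and Ptar1, at distances of 0.17 to 0.18. A profile over 3 libraries is short, and such neighbours are a description only.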

How the data were processed

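RNA of sorted macrophages from the heart, kidney and liver was sequenced, 1 library per tissue. The authors deposited RPKM per RefSeq transcript, made per the file headers with HOMER's analyzeRepeats.pl on mm10, counting exon reads on both strands with at most 3 tags per position. The column names say FPKM, while the command in the header asks for RPKM. The submitters' processing notes name CASAVA and STAR without versions. The lengths in the deposited table, another quantity beside the RPKM, are exon bases per transcript.

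The table held 34711 transcripts. RPKM times exon length summed to 1000000 in each library, and its low values were whole multiples of a step, which gave the reads. All the values checked, of up to 500 reads, were whole to a tolerance of 0.1 read (heart 15236, kidney 14159, liver 12075). For each of 24453 symbols the longest coding transcript was kept, or the longest of any kind for symbols without a coding transcript. The 11482 genes that reached 1 RPKM in some library were compared on log2(RPKM + 1) at a threshold of 2. Reading and calling were tested on simulated data. Python 3.11.15, numpy 2.4.6, pandas 2.3.3, scipy 1.17.1 and matplotlib 3.10.9 were used. Exon overlap and shared 50-base words came from GENCODE M21, and promoters were found in RefSeq for 8 of 9 members.

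The members and lists were chosen with earlier results of these data known. Named genes are all members, their paralogs, up to 5 genes per related list with the largest difference in any pair, the main markers of other cells, and 3 nearest profiles of each member 4-fold apart. Il1b and Il18, as the cytokines caspase-1 matures, and the NF-κB genes of the priming list were added after their values were seen. Some genes this rule chose are left out of the text.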

Additional observations from a re-analysis of the deposited data

How the results depend on the processing

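The count of members at least 4-fold apart was 2 for heart minus kidney, 1 for heart minus liver and 1 in kidney minus liver. Beside each count stands the share of all genes called under the same setting, which was 7.50%, 12.5% and 12.7% as reported. For heart minus kidney the count became 1 with a pseudocount of 5 (1.86% of all genes), 6 at a 2-fold threshold (33.5%) and 1 without genes of over 2 reads per base (7.42%), which leaves out Casp1 and Casp4 and so 7 members. For heart minus liver it became 2 with a pseudocount of 0.1 (28.5%), 3 as TPM (23.7%), 2 with median ratio scaling (12.6%), 4 at 2-fold (42.9%) and 0 without the dense genes (12.3%). For kidney minus liver it became 2 with a pseudocount of 0.1 (27.7%), 0 with a pseudocount of 5 (3.41%), 2 as TPM (24.7%) and 4 at 2-fold (41.9%). Leaving out the filter on low values or taking another transcript per gene kept these counts the same. Of 162 alternative values for the 27 differences of members, 160 kept their sign, and the 2 that did not were those of Nlrc4 for heart minus kidney. No paired analysis was possible because each tissue has 1 library, and for the same reason no replicate could be left out. Depth limits Nlrp1b most, with 2 reads in the liver library.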
